A study of Cucumis sativus with 6 samples.

Results

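The genes described here were low but still detected in the phloem of the cucumber pedicle, the stem by which the flower and later the fruit hang from the vine, while their levels in stalk and fruit phloem were several times higher and close to each other. They number 100 of the 15720 genes in the table. They were chosen by their measured values in the same 6 libraries that are described here, so their low level in pedicle is a condition of entry and not a result. The values are TPTM scores, the authors' normalised expression values, which sum to just under 10000000 in each library; the reads behind a score are unknown. A member had a pedicle mean, after adding 5 TPTM, at least 5-fold below both the stalk mean and the fruit mean, and stalk and fruit means within 2-fold of each other. All 4 stalk and fruit libraries had to reach 100 TPTM and lie above both pedicle libraries, and at least 1 pedicle library had to exceed 3 TPTM.

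The study compared the phloem of 3 organs of Cucumis sativus inbred line 9930, taken from young fruits and their pedicles 3 days after anthesis (flower opening). Each of pedicle, stalk and fruit has 2 libraries, described by the submitters as biological replicates; no treatment or genotype separates the groups. Phloem was cut out of fixed, paraffin-embedded sections by laser microdissection, and the small amount of RNA was amplified before sequencing. The labels do not say how many plants or sections went into a library, nor where pedicle ends and stalk begins.

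Phloem carries sugars, amino acids, RNA and signals from leaves to growing organs. Its conducting cells, the sieve elements, lack a nucleus at maturity and are kept alive by adjoining companion cells. In cucurbits, phloem lies on both sides of the xylem in each vascular bundle, and a second network of sieve tubes runs outside the bundles. A young fruit is a strong sink, and what it receives by way of phloem passes through the pedicle.

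The deposited table names genes by locus identifier alone. None of the identifiers (0 of 15720) occurs in the RefSeq table of 23999 cucumber genes of assembly Cucumber_9930_V3. Products, protein roles and sequences are therefore not stated for any member, and marker genes for phloem or for other cell types could not be looked up. In tissue of this kind, fewer cells of a type that uses a gene and less of its RNA per cell cannot be told apart.

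The conditions were met in steps. Stalk and fruit means lay within 2-fold of each other in 13553 genes, and 7274 of these had at least 100 TPTM in all 4 stalk and fruit libraries. In 2061 of the 7274 genes (28.3%) all 4 libraries also lay above both pedicle libraries. The 5-fold limit left 105 genes, of which 100 had a pedicle library above 3 TPTM. The members thus make up 1.37% of the genes whose level and agreement in stalk and fruit would have let them in, and 0.636% of the table.

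**Figure D1:**
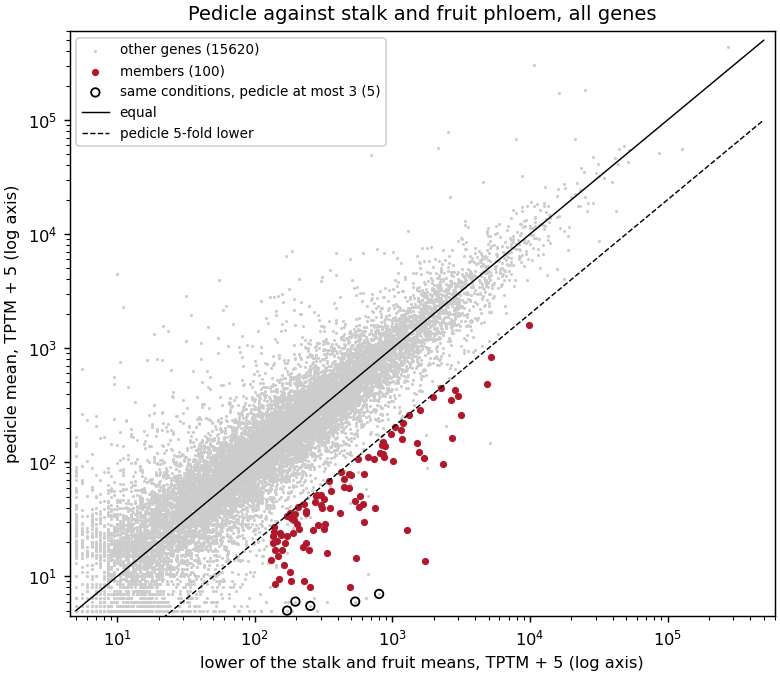
Pedicle mean against the lower of the stalk and fruit means for every gene, both as TPTM + 5 on log axes, with members in red and the 5 genes that met the other conditions with no pedicle library above 3 TPTM as open circles. The 100 members lie below the dashed line of a 5-fold reduction, between pedicle means of 3.0 and 1600 TPTM, and most genes lie near the line of equal levels.

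The members ranged widely in level. Their mean over stalk and fruit ran from 136.5 to 10358 TPTM with a median of 439, and 28 members reached 1000 TPTM. In pedicle, their means ran from 3.0 to 1600 TPTM with a median of 36.2. Ranked among all genes of a library, the median member stood at percentiles 72.8 and 78.3 in stalk and 78.2 and 74.5 in fruit, but at 23.9 and 25.9 in pedicle. The median gene of the whole table scored 128 TPTM in pedicle replicate 1 and 133 in pedicle replicate 2, and 19 and 23 members were above it.

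Summed over the 100 members, expression took 0.101% and 0.106% of the pedicle libraries. The same genes took 0.861% and 0.946% of the stalk libraries and 1.11% and 0.915% of the fruit libraries. Replicates of an organ were closer to each other in this sum than either pedicle library was to any other organ. The rule had largely fixed this distance of pedicle in advance, so nothing is read from it.

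The stalk mean was a median of 8.16-fold above pedicle and the fruit mean a median of 9.59-fold, on the TPTM + 5 scale. Taking for each gene the smaller of its 2 folds, the middle range of the members (quartiles) ran from 6.01 to 11.9, with a median of 7.34 and a maximum of 129. A reduction of at least 8-fold was found in 42 members, of at least 10-fold in 32, of at least 20-fold in 10 and of at least 50-fold in 3. More members therefore lay between 5-fold and 8-fold, near the limit that defines them, than beyond it.

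**Figure D2:**
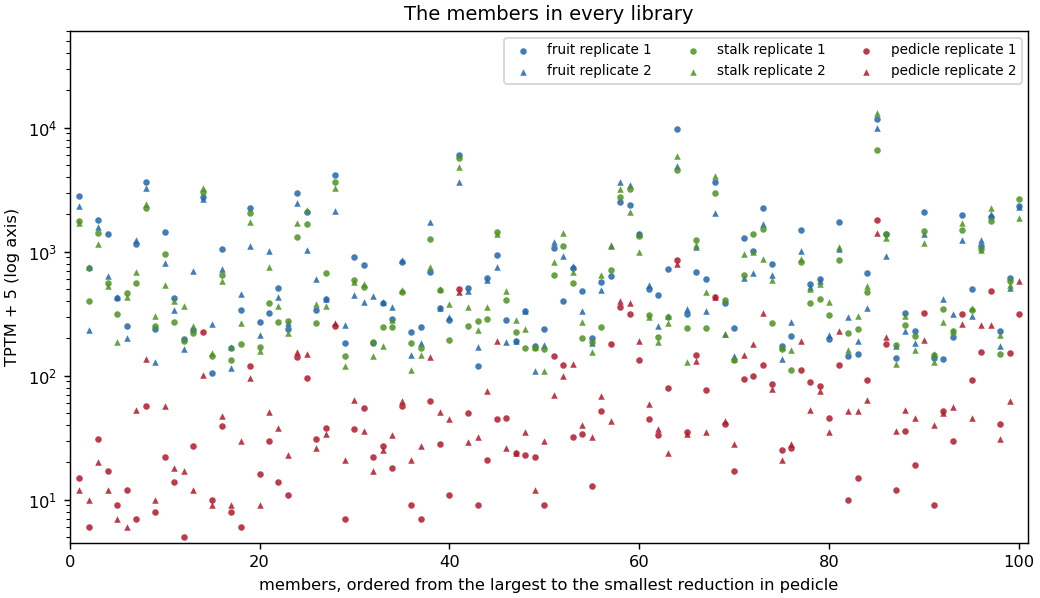
TPTM + 5 (log axis) of each of the 100 members in all 6 libraries, ordered along the horizontal axis from the largest to the smallest reduction in pedicle, with circles for replicate 1 and triangles for replicate 2. Pedicle libraries (red) are the lowest for every member, as the rule demands, and the pedicle replicates of many members are far apart.

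Csa6G516780 was the most reduced member. Its scores were 10 and 7 TPTM in pedicle, against 1751 and 1715 for stalk and 2797 and 2322 for fruit. Its pedicle mean was 8.5 ± 2.12 TPTM (SD, n = 2). On the TPTM + 5 scale, pedicle was 129-fold below stalk and 190-fold below fruit, and both libraries of every organ were close together. Csa3G743400 came next, with 1 and 5 TPTM in pedicle, 392 and 754 in stalk, 736 and 229 in fruit. Its folds of 72.2 and 60.9 rest on a pedicle level at which 4 TPTM separate the libraries, and its fruit libraries were also far apart. CsaUNG031640 was the third member above 50-fold, with 26 and 15 TPTM in pedicle, 1401 and 1151 in stalk, 1802 and 1572 in fruit.

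The most abundant members were Csa6G318160 and Csa2G010330, which held the highest means both in pedicle and over stalk and fruit together. Csa6G318160 had 1797 and 1403 TPTM in pedicle, against 6581 and 13096 in stalk and 11761 and 9994 in fruit. Its means in stalk and fruit were 6.13-fold and 6.78-fold above pedicle, and its stalk libraries lay on either side of both fruit libraries. Csa2G010330 had 860 and 792 TPTM in pedicle, 4536 and 5863 in stalk, 9685 and 4907 in fruit, with folds of 6.26 and 8.79. Both genes stayed well expressed in pedicle, far above the score of the median gene there.

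**Figure D3:**
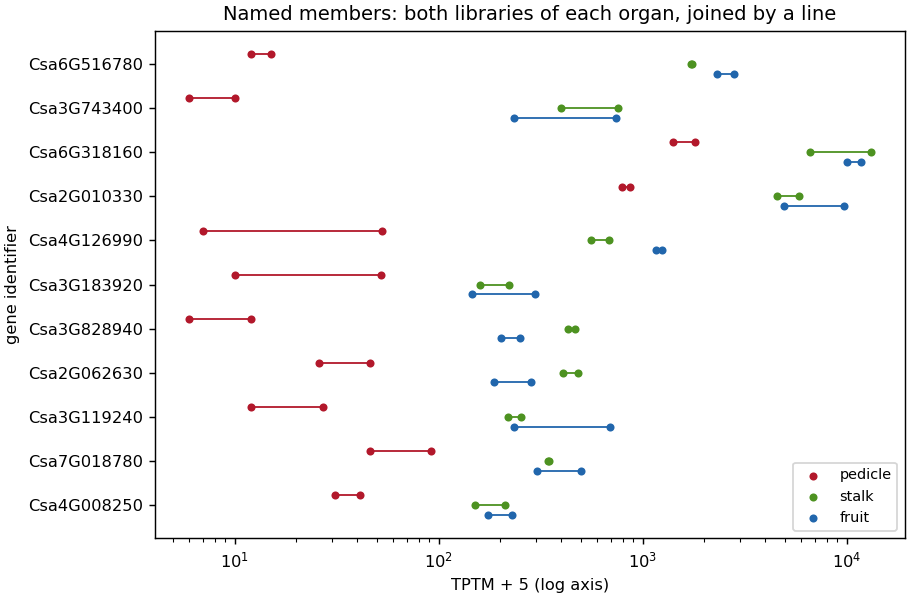
TPTM + 5 (log axis) of the 11 members named by rule, with both libraries of each organ as points joined by a line. The pedicle points of Csa6G516780 (10 and 7 TPTM) lie farthest from its stalk and fruit points, and those of Csa4G126990 (2 and 48 TPTM) lie farthest from each other.

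The pedicle level that remained differed between members. In 11 members the pedicle mean was under 10 TPTM, in 49 it was 10 to 50, in 11 it was 50 to 100 and in 29 it was 100 or more. The median of the smaller fold was 20.4 in the lowest of these classes, 7.64 and 6.45 in the next, and 6.35 in the highest. With stalk and fruit set at no less than 100 TPTM, a member at a low pedicle level has a large fold by construction. Reductions in the highest class reached 16.6-fold, and this class had a median of 1567 TPTM over stalk and fruit, against 225.5 in the lowest class. With the 5-fold limit, a pedicle mean of 100 or more also sets a high stalk and fruit level by construction.

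Both pedicle libraries exceeded 3 TPTM in 90 members, both reached 10 TPTM in 73 and both reached 100 TPTM in 19. The other 10 members entered through 1 pedicle library only. Only 1 member, Csa7G043050, was listed at 0 in a pedicle library, with 0 and 12 TPTM in pedicle, 187 and 361 in stalk, 192 and 160 in fruit. The boundary toward undetected genes was thinly populated, since only 5 genes met every condition but that of a pedicle library above 3 TPTM. Those 5, Csa2G371100, Csa2G406800, Csa3G094510, Csa3G142400 and Csa6G503370, had at most 2 TPTM in a pedicle library and means of 186 to 851 TPTM over stalk and fruit, within the range of the members.

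Pedicle replicates of the members were farther apart than those of stalk and fruit. The root mean square standard deviation between replicates, as log2(TPTM + 5), was 0.74 in pedicle, 0.34 in stalk and 0.48 in fruit over the 100 members. Over all 15720 genes it was 0.59, 0.31 and 0.49. The wider pedicle spread went with low level: over the 51 members whose pedicle mean lay between 19.0 and 105 TPTM, the middle range of the members, it was 0.77, and over all 4604 genes in that range it was 0.75. Members with a pedicle mean under 50 TPTM had a value of 0.81 and those at 50 or more had 0.63.

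In 31 of the 100 members the pedicle libraries differed by more than 2-fold, and 21 of these 31 had a pedicle mean under 50 TPTM. Replicate 2 was the higher library in 24 of the 31. Of all genes in the middle pedicle range given above, 29.5% differed as much, and replicate 2 was higher in 59.5% of those. A difference of more than 2-fold was seen in 17 of the 51 members in that range (33.3%). Which library property goes with the higher scores of replicate 2 was not tested.

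Csa4G126990 and Csa3G183920 had the pedicle libraries farthest apart. Csa4G126990 had 2 and 48 TPTM in pedicle, 553 and 679 in stalk, 1156 and 1238 in fruit. Its stalk and fruit libraries were tight, so that nearly all of its replicate spread came from pedicle, where the libraries were 7.57-fold apart on the TPTM + 5 scale. Csa3G183920 had 5 and 47 TPTM in pedicle, 217 and 155 in stalk, 140 and 293 in fruit. Its log2 difference of pedicle from stalk and fruit was -1.93 without pedicle replicate 1 and -4.31 without pedicle replicate 2, which is under a 5-fold reduction in the first case.

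A pedicle library that took no part in a choice gives a pedicle value which that choice did not use. When pedicle replicate 1 was left out, the rule chose 103 genes from the other 5 libraries, 79 of them members. In the left-out pedicle replicate 1, 69 of the 103 (67.0%) were again at least 5-fold below both other organs, and the same held for 2.03% of the 7274 genes that met the stalk and fruit conditions. The median fold in that library was 6.58, and all 103 genes were below both organ means, 101 of them by at least 2-fold. Most of these genes were thus low in the left-out pedicle library too, though a fold under 5 was read in 34. The stalk and fruit values in these folds were those that chose the genes.

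Without pedicle replicate 2, the rule chose 135 genes, 82 of them members. Of the 135, 63 (46.7%) were at least 5-fold reduced in pedicle replicate 2, against 1.51% of the 7274 genes. The median fold fell to 4.55 there from 7.34 in the library that chose them, 124 genes were at least 2-fold reduced, and 134 lay below both organ means. Genes chosen on pedicle replicate 1 alone were therefore reduced less in the library that had not chosen them. In the choice made without pedicle replicate 1 the median fold also fell, from 7.25 to 6.58. A fall can follow from choosing genes by a low value, so nothing about either library is read from it. The stalk and fruit values in both readings were the same ones that chose the genes.

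**Figure D4:**
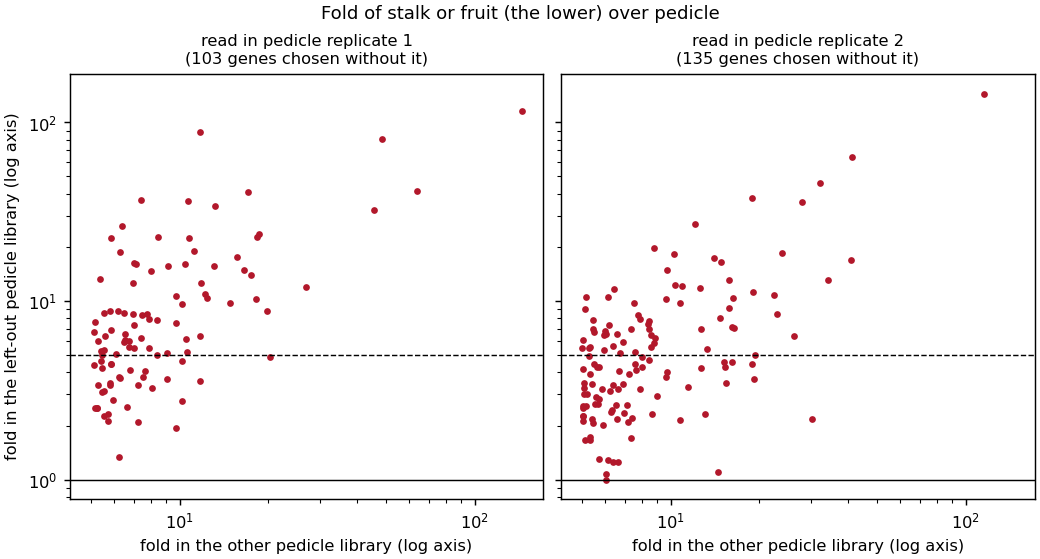
Fold of the lower of the stalk and fruit means over pedicle (TPTM + 5, log axes) for genes chosen without one pedicle library, in the library that chose them (horizontal) and in the library left out (vertical), with lines at equal levels and at 5-fold. Of 103 genes 69 lie above the 5-fold line in pedicle replicate 1, and of 135 genes 63 do so in pedicle replicate 2.

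A stalk or fruit library can be left out in the same way, but its fold is taken over the pedicle values that chose the genes as low, so a high share is largely fixed by the choice and supports nothing. The genes chosen without stalk replicate 1 numbered 98, and 81 of them (82.7%) were at least 5-fold above pedicle in that library, against 1.62% of eligible genes. For stalk replicate 2 the count was 80 of 89 (89.9%, against 1.55%), for fruit replicate 1 82 of 91 (90.1%, against 2.30%) and for fruit replicate 2 83 of 101 (82.2%, against 1.86%). Every gene so chosen was at least 2-fold above pedicle in the stalk or fruit library left out, the lowest fold being 2.51.

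Between the libraries of one gene, the gap from the lowest stalk or fruit library to the highest pedicle library showed how far the organs stood apart. This gap had a median of 5.02-fold over the members, and it reached 5-fold in 51 of them. The rule demanded that the first library exceed the second and that the means be 5-fold apart. These sizes therefore only describe the members. The smallest gap, 2.62-fold, was that of Csa5G152250, with 47 and 45 TPTM in pedicle, 343 and 268 in stalk, 131 and 412 in fruit. One fruit library of this gene lay between pedicle and stalk, and the other was above both stalk libraries.

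One model was fitted to the 15381 genes that scored 10 TPTM or more in 2 or more libraries (limma, Benjamini-Hochberg adjusted p under 0.05), and all 100 members were among them. Every member was called lower in pedicle than in stalk, as were 8.88% of all tested genes. Every member was also called lower in pedicle than in fruit, as were 15.1% of all tested genes. The rule used both contrasts, so these counts are not evidence for the members. The median log2 difference of pedicle was -3.09 from stalk and -3.27 from fruit over the members, beside -0.07 and -0.21 over all genes. The comparisons share the pedicle libraries.

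Fewer members were called when a library of the organ compared with pedicle was left out of the model. Against stalk, 78 were called lower in pedicle when stalk replicate 1 was missing, beside 2.11% of all tested genes, and 73 when stalk replicate 2 was, beside 1.81%. Against fruit, the counts were 99 in the absence of fruit replicate 1, beside 7.68% of all tested genes, and 94 in that of fruit replicate 2, beside 7.13%. In these fits the lone library of an organ is assumed to vary like those of the other organs.

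Stalk and fruit levels of the members were limited by the rule to a 2-fold difference of means, and ran from 0.51 to 1.97 as the ratio of stalk to fruit. None of the 100 members (0) was called different between stalk and fruit by limma, where 2.95% of all tested genes were called. At an unadjusted limma p under 0.05, 11 members passed, beside 19.2% of all genes. The spread in that model includes the pedicle libraries. With only stalk and fruit in the model, 27 members passed at the same limma p, beside 24.3% of all genes. Since the rule capped this difference, nothing is read from these counts.

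Within that cap, the stalk mean was below the fruit mean in 70 members, compared with 58.2% of the 7274 genes that met the stalk and fruit conditions. Both fruit libraries lay above both stalk libraries in 36 members and the reverse held in 12, beside 31.1% and 21.8% of the 7274 genes. In the other 52 members the libraries of stalk and fruit overlapped. The share with stalk below fruit depended on scaling. It was 63.0% of members with quantile-normalised libraries and 59.0% with libraries set to a common median. Over all genes, not only the 7274, it was 51.8% and 50.4% with these scalings. In the scores as deposited it was 59.0% of all genes.

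Members at the ends of this range differed in form. Csa3G828940 had the highest ratio of stalk to fruit, 1.97, with 460 and 426 TPTM in stalk, 247 and 197 in fruit and 7 and 1 in pedicle. Csa2G062630 followed at 1.90, with 404 and 478 TPTM in stalk, 279 and 181 in fruit and 41 and 21 in pedicle. In both genes each stalk library was above each fruit library.

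On the fruit side, Csa3G119240 had 230 and 691 TPTM in fruit, 215 and 249 in stalk and 22 and 7 in pedicle. Its ratio of fruit to stalk, 1.96, came from 1 fruit library, and the other overlapped the stalk range. Csa4G126990, described above for its pedicle libraries, had a ratio of 1.94 with no overlap. Both are near the limit at which a gene would have left the group: 23 genes met every other condition and differed more than 2-fold between stalk and fruit, 20 of them higher in fruit and 3 (Csa1G422480, Csa6G181560 and Csa7G447990) higher in stalk.

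The 5-fold limit cut through a continuous range. Just inside it, Csa7G018780 had 87 and 41 TPTM in pedicle, 337 and 344 in stalk, 494 and 300 in fruit, a smaller fold of 5.01. Csa4G008250, at 5.04, had 36 and 26 TPTM in pedicle, 146 and 207 in stalk, 223 and 169 in fruit. Just outside it, Csa4G045060 had 48 and 40 TPTM in pedicle, 254 and 225 in stalk, 291 and 334 in fruit, a smaller fold of 4.99. Csa3G730930, at 4.90, had 102 and 127 TPTM in pedicle, 559 and 603 in stalk, 701 and 487 in fruit. These 4 genes show the same pattern, and the pedicle replicates of the excluded pair were closer together than those of Csa7G018780.

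The number of genes fell steeply with the fold required. With the other conditions kept, 610 genes were at least 2-fold lower in pedicle, 249 at least 3-fold, 138 at least 4-fold, 100 at least 5-fold, 42 at least 8-fold and 10 at least 20-fold. Turned toward pedicle, with both pedicle libraries at 100 TPTM or more, above all others and at least 1 stalk or fruit library above 3 TPTM, the same fold limits gave 311, 108, 65, 46, 29 and 8 genes. The 46 genes at least 5-fold higher took 9.14% and 8.82% of the pedicle libraries, far more than the 100 members took in any library. A further 51 genes met all conditions of the members except the 100 TPTM floor in stalk and fruit, where their median was 73.5 TPTM.

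Each identifier carries a digit after Csa and a number after G, whose meaning for genome position the files do not state. By that digit, 16 members had a 1, 12 had a 2, 22 had a 3, 14 had a 4, 6 had a 5, 13 had a 6 and 16 had a 7, and 1 member, CsaUNG031640, had an identifier with no such digit. As a share of the genes that met the stalk and fruit conditions, this was lowest for digit 5, at 0.634%, and highest for digit 7, at 2.25%, with 1.09% to 1.56% on the others. These shares are counts of few genes and carry no test.

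Some members had neighbouring identifiers. Members make up 0.636% of the table, and 195 genes directly beside a member were not members. Whether the pairs below are more or fewer than chance would give was not tested. In 2 pairs the members stood next to each other in the table, and in 5 pairs, the limit being chosen after the values were seen, their numbers were at most 50 apart. Csa5G152240 stood beside Csa5G152250, described above, and had 175 and 38 TPTM in pedicle, 703 and 1135 in stalk, 627 and 1102 in fruit. Csa3G828960, listed directly after Csa3G828940, had 2 and 16 TPTM in pedicle, 139 and 114 in stalk, 177 and 250 in fruit. In the latter pair pedicle replicate 1 was the higher library for the first gene and the lower for the second. Whether such neighbours are similar in sequence, so that reads could be assigned to either, is not known here.

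The other 3 close pairs were separated by genes that were not members. Csa3G047810 had 32 and 59 TPTM in pedicle, 588 and 570 in stalk, 899 and 444 in fruit, and Csa3G047840 had 52 and 57, 469 and 482, and 818 and 859. Between them, Csa3G047830 had 193 and 144 TPTM in pedicle, 145 and 189 in stalk, 203 and 160 in fruit, so that its organs overlapped. Csa3G047820, also between them, had 22 and 0 TPTM in pedicle, 9 and 10 in stalk, 26 and 49 in fruit. Csa3G047800, listed just before the pair, was lower in pedicle too, but outside the 5-fold limit. It had 139 and 121 TPTM in pedicle, 387 and 412 in stalk, 609 and 409 in fruit.

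Csa7G048020 had 40 and 186 TPTM in pedicle, 1431 and 1383 in stalk, 943 and 747 in fruit. Csa7G048060 had 427 and 429 TPTM in pedicle, 2988 and 4110 in stalk, 3633 and 2039 in fruit. The next listed gene, Csa7G048070, ran the other way, with 149 and 211 TPTM in pedicle, 20 and 21 in stalk, 80 and 39 in fruit. Csa7G432470 and Csa7G432520 formed the last pair, with smaller folds of 7.63 and 5.08.

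**Figure D5:**
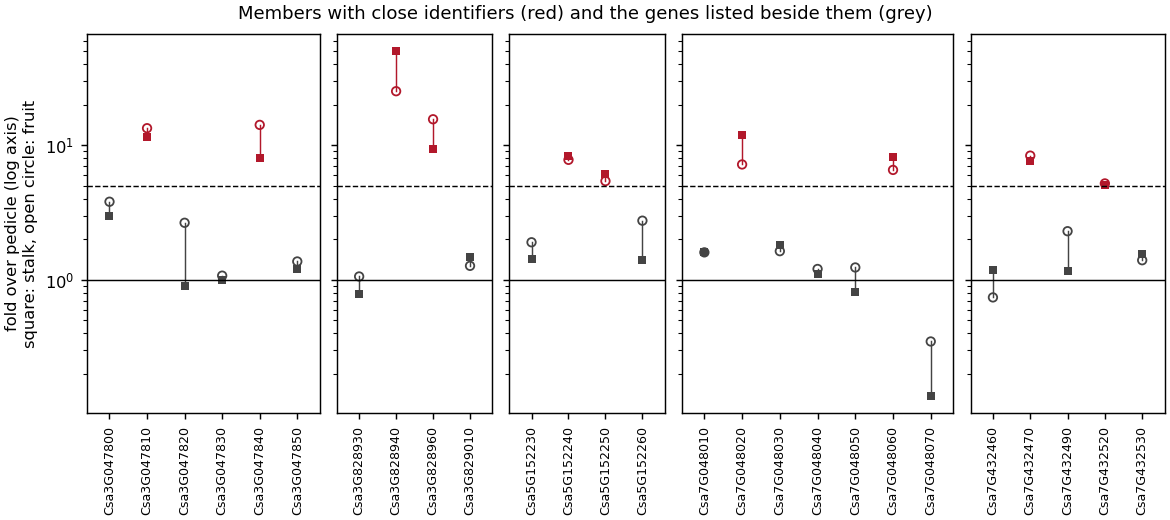
Fold of stalk (squares) and fruit (open circles) over pedicle on the TPTM + 5 scale (log axis) for the 5 pairs of members with close identifiers (red) and the genes listed between and beside them (grey), with lines at equal levels and at 5-fold. No gene in grey reaches 5-fold, and Csa7G048070 lies below the line of equal levels.

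Over all members, 195 genes that were not members stood directly beside one in the table. Of these, 23 (11.8%) had a pedicle mean at least 2-fold below both other organs, beside 9.22% among all genes that were not members.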

How the data were processed

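Per the labels' protocols, phloem was laser-dissected from fixed sections and its RNA amplified before library preparation. Per the submitters' processing notes, TopHat and HTSeq were used; neither versions nor a genome build or annotation are given in the sources used here. In the table the authors deposited, there is 1 whole-number score per gene and library, called TPTM. It is a normalised, rounded value, so read depth is unknown, and no count model or counting interval was used.

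The members were found by the stated rule on the deposited scores. Members, comparisons and lists were chosen with earlier results of these data known. For counts of calls, log2(TPTM + 5) was fitted for 15381 genes over all 6 libraries (limma 3.58.1, R 4.3.3). Organ was the term, and an intensity trend was used. The fit was tried on simulated data in which a gene had the same spread in every organ, unlike these data. Spreads were also shuffled over genes there, so the trial could not check the intensity trend. The filter of 10 TPTM in 2 libraries removed 339 genes. Named genes are those at the extremes of fold, level, replicate gap and stalk-to-fruit ratio, and nearest to the 5-fold limit, 2 each, plus the 2 pairs adjacent in the table; all other genes in the text were named after their values were seen. The p-values measure only the spread between replicate libraries of the same organ. In the fit over all 6 libraries, this spread was pooled over pedicle, stalk and fruit and drawn toward the intensity trend. The comparison of stalk with fruit therefore carried the pedicle spread too. Alternatives covered the pseudocount, filter, scaling, trend, rule limits, replicate block and libraries left out.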

Additional observations from a re-analysis of the deposited data

How the results depend on the processing

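The group's size depended mostly on its own limits: a fold of 8 left 42 genes and a minimum of 200 TPTM left 65, all among the 100. Under the other limits, pseudocounts and scalings it numbered 70 (pseudocount of 20) to 138 (fold of 4). Of 86 genes chosen with quantile normalisation 81 were members, and of 84 chosen with a common median 82 were. These scalings moved the median log2 difference of pedicle from fruit over all genes from -0.21 to 0.01 and -0.03. Every member stayed lower in pedicle, which the 5-fold limit had largely fixed in advance. The log2 differences of members were no nearer to 0 than -2.03 under quantile normalisation and -2.04 with a common median. Leaving out 1 library gave 89 to 135 genes, of which 79 to 88 were members.

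No setting called a member different between stalk and fruit or higher in pedicle. The rule capped the first difference and set the second, so nothing is read from either. With 1 library left out, members called lower numbered 73 to 100 against stalk, where 1.81% to 10.8% of all tested genes were called lower, and 94 to 100 against fruit, where 7.13% to 15.9% were, and 100 in both under all other settings, including the replicate block. Across genes, the replicate differences of any pair of organs correlated at -0.117 to 0.0103, which gives no sign of pairing by number. For the 11 named members, log2 differences were an alternative added after seeing the data. They kept their sign in all 110 values, which the rule had largely fixed in advance. They moved by more than the replicate SD in 17 of these, mainly with another pseudocount or without a pedicle library. Rounding and unknown read depth limit pedicle scores of a few TPTM most.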
